A study of Homo sapiens with 14 samples.

Results

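Returning wild-type EZH2 to LNCaP cells whose own EZH2 had been knocked down was compared with the knockdown alone, over all genes that the arrays could name. LNCaP is an androgen-responsive human prostate cancer cell line. The comparison rested on 4 of the 14 arrays of the series, 2 per group, and on 19775 genes, each read by 1 probe set. The cells with knockdown alone (si-EZH2) had received an siRNA against EZH2 for 60 h, and the add-back cells (WT add-back) the same siRNA together with a plasmid for wild-type EZH2 that the siRNA cannot target. Both groups therefore shared the siRNA and differed by the plasmid, whose promoter the labels do not name. Reference was made to 2 more groups of the same 60 h transfection, a control siRNA (si-Control) and si-EZH2 with a resistant plasmid for the T350A mutant (T350A add-back), in which an alanine replaces a threonine. The other 6 arrays, of untransfected cells, entered the model only to estimate the spread between arrays, and were treated for 24 h with Roscovitine (10 uM), TSA (5 uM) or the solvent DMSO (0.1%). No group received an empty plasmid, so transfection of plasmid DNA and return of EZH2 protein cannot be told apart here. The labels do not state whether the 2 samples of a group are separate cultures, and p-values therefore measure the spread between these samples, which may be technical.

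EZH2 is the methyltransferase of the Polycomb complex PRC2, whose mark on histone H3 keeps developmental genes silent, and it is often raised in advanced prostate cancer. NF-kappaB is a family of transcription factors held in the cytoplasm by inhibitor proteins and released by cytokines, by pattern receptors that sense microbes or foreign nucleic acid, and by other stress. It induces chemokines, which attract leukocytes, and its own inhibitors. The hypoxia-inducible factors raise glucose uptake and glycolysis when oxygen is low, and cell-cycle genes are read mainly in dividing cells.

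The signal of an array is a linear brightness per probe set as summarized by the authors, with array medians from 107 to 117, and 31.7% to 34.5% of probe sets under a signal of 50. Differences below are differences of group means of log2(signal + 16), with standard errors (SE) from limma, which understate the change of genes with low signals. A gene was called at a limma adjusted p under 0.05, and the words "rose" and "fell" refer to called genes alone. The number of arrays limits the precision. Of the called genes named by rule 114 have other probe sets, 217 in all, of which 91 were called in the same direction, 2 in the opposite one and 124 not, 48 of these under a signal of 50 in both groups. As a check of the cell line, KLK3, which encodes the prostate-specific antigen and was chosen after its values were seen, read 9832 and 9600 in si-EZH2, and the 14 markers of LNCaP and luminal prostate cells all had a group mean of at least 50. The 16 leukocyte markers and the 16 fibroblast and endothelial markers held no gene called by limma (1 and 0 at an unadjusted p under 0.05, which 24.9% of all genes reached), with summed signals of 2701 to 3303 and 2785 to 3238 in si-EZH2 and of 2688 to 2794 and 2764 to 2853 in WT add-back.

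EZH2 itself read 392.5 and 393.2 in si-EZH2 and 839.0 and 822.4 in WT add-back, against 1161 and 1221 in si-Control. The WT add-back and si-EZH2 arrays did not overlap, which held for 10640 of all 19775 genes. The add-back brought the signal to 69.8% of the control mean from 33.0%. The difference from si-EZH2 was 1.05 ± 0.07 (SE, adjusted p = 0.00037). In T350A add-back EZH2 read 806.2 and 825.6, close to the wild-type plasmid. Whether this probe set reads the transcript of the plasmid is not known from the sources used here. Of the 11 PRC2 subunits, the other called one was JARID2, an accessory subunit that helps recruit the complex, which went from 709.8 and 734.9 to 1021 and 865.1 (0.37 ± 0.08, adjusted p = 0.022). This call was lost without either si-EZH2 array or WT add-back replicate 1, with an adjusted p of up to 0.12. The uncalled subunits, among them the core partners SUZ12 and EED, lay between -0.26 and 0.08.

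Across all genes 2234 of 19775 were called (11.3%). Of these 664 were higher in WT add-back (3.36% of genes) and 1570 lower (7.94%). Rises and falls differed in size. Of the genes called higher 181 rose by at least 1 log2 unit and 59 by at least 2, up to 8.37, whereas 37 of those called lower fell by at least 1 and none by 2, the largest fall being 1.85. The median gene lay at -0.05. When every array was first shifted to the same median, 736 genes were called higher and 800 lower, so that the share of higher calls went from 29.7% to 47.9%. The count of calls also rested on single arrays. Leaving out si-EZH2 replicate 2 lowered it to 458, leaving out si-EZH2 replicate 1 to 611 and leaving out WT add-back replicate 1 to 826. The first WT add-back array lay farther from si-EZH2 than the second for 614 of the 664 genes called higher and for 1283 of the 1570 called lower.

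**Figure D1:**
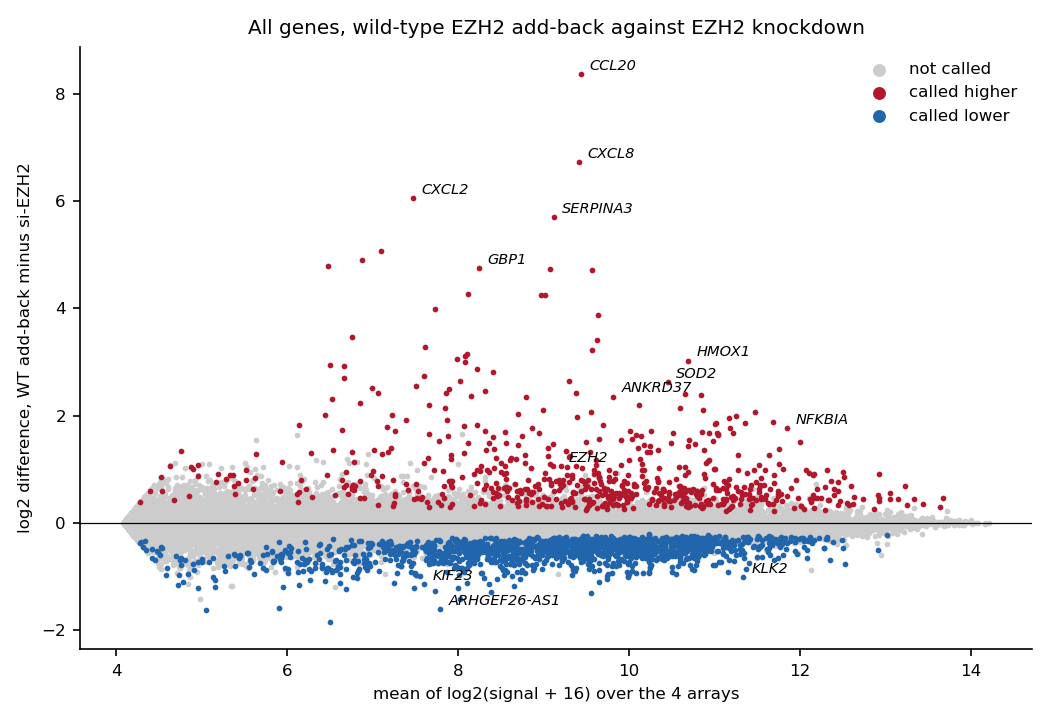
Each point is 1 gene, with the mean of log2(signal + 16) over the 2 si-EZH2 and 2 WT add-back arrays on the horizontal axis and the log2 difference, WT add-back minus si-EZH2, on the vertical axis. Red points were called higher (664), blue points called lower (1570) and grey points not called, and the rises reach 8.37 for CCL20 while the largest fall is 1.85.

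Promoter sequences are shown for the 3 genes with the largest rises, for the hypoxia-inducible gene with the smallest p, and for the mitotic gene with the largest fall. Each is the 250 bases before the annotated start, read 5' to 3' in the direction of the gene, from RefSeq (GRCh38.p14). The promoters of CCL20 (chr2:227813592-227813841, plus strand), CXCL8 (chr4:73740319-73740568, plus strand) and CXCL2 (chr4:74099196-74099445, minus strand) carry in capitals each match to GGANNNNCC on either strand, a loose form of the NF-kappaB site. The promoter of ANKRD37 (chr4:185396591-185396840, plus strand) carries in capitals each ACGTG on either strand, the core of the hypoxia response element. The promoter of KIF23 (chr15:69414099-69414348, plus strand) carries in capitals the TTTGAA of the cell-cycle element CHR, searched on both strands.
CCL20: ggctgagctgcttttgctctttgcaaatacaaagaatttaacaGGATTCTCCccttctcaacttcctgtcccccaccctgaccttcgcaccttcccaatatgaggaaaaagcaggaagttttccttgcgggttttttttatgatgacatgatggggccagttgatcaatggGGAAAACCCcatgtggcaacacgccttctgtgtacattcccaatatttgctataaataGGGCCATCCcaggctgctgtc
CXCL8: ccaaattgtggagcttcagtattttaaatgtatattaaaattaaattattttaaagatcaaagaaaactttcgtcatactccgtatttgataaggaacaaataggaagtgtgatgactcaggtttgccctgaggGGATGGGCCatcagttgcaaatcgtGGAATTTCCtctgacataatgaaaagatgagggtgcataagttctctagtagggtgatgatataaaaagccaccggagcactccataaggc
CXCL2: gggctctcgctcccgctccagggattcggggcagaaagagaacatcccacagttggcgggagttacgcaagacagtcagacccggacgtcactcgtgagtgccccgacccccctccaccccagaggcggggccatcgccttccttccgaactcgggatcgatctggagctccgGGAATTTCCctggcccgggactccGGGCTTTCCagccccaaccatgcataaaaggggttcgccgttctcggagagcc
ANKRD37: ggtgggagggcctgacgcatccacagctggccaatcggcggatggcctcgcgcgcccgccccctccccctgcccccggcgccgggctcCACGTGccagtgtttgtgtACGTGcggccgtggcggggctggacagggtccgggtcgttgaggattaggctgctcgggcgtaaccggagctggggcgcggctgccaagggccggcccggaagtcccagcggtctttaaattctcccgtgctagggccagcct
KIF23: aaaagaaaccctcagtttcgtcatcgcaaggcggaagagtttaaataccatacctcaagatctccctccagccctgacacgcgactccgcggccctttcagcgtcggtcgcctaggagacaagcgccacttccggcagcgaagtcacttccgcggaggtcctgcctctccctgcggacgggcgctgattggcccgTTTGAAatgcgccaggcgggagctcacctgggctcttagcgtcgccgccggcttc
The longest match in ANKRD37 is a pair of overlapping ACGTG matches on opposite strands. GGANNNNCC was found in 12844 of 27305 promoters of this length (47.0%), in 12 of the 15 promoters matched for NF-kappaB subunits and inhibitors (80.0%) and in 16 of 27 for chemokines (59.3%). It was also in 63.3% of those of the hypoxia and glycolysis list, in 57.2% of those of genes called higher and in 54.5% of those of genes called lower. ACGTG was found in 18.7% of all promoters and in 12 of the 30 promoters of the hypoxia and glycolysis list, and in 31.1% of those of the G2 and mitosis list. Its share was 23.7% for genes called higher and 22.7% for genes called lower. TTTGAA was found in 13.6% of all promoters and in 24 of 45 of the G2 and mitosis list (53.3%). Its share was 7.8% for genes called higher and 12.4% for genes called lower. These matches describe the letters of a window and were not tested as binding sites.

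The largest rises were in chemokines. CCL20, which attracts immature dendritic cells and T cells, read 22.96 and 21.79 in si-EZH2 and 14170 and 11267 in WT add-back (8.37 ± 0.17, adjusted p = 4.7e-08). CXCL8, the neutrophil attractant interleukin 8, went from 54.03 and 47.14 to 8020 and 6167 (6.73 ± 0.23, adjusted p = 2.3e-06). CXCL2, another neutrophil attractant, went from 10.50 and 1.85 to 1393 and 1475 (6.06 ± 0.53, adjusted p = 0.00061). The other CXCL2 probe sets gave 0.37 (mean signal of 39.22 in si-EZH2) and 0.06 (2.28), neither called. In the probe sets used, the si-EZH2 signals of CCL20, CXCL8 and CXCL2 lay near or under 50. On the si-EZH2 arrays 32.5% and 32.9% of all probe sets read under 50. For CCL20, CXCL8 and CXCL2 both WT add-back arrays stood far above si-EZH2. CCL2, a monocyte attractant, rose from 4.38 and 6.65 to 840.9 and 471.0. CCL8 rose from 134.0 and 130.9 to 4845 and 3098. CXCL10 and CXCL11, which attract activated T cells and are induced by interferon as well as NF-kappaB, rose by 4.73 ± 0.39 and 3.99 ± 0.39. These 7 were the called members of 38 chemokines, and none of the 38 was called lower, while 12 of the uncalled ones stayed under a signal of 50 in both groups and the median of the list was 0.12. The 7 genes were called without any 1 of the 14 arrays. In T350A add-back CCL20 read 13242 and 11148 and CXCL8 read 9763 and 5560, and no chemokine was called between the plasmids.

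Other secreted defence proteins followed. SERPINA3, the acute phase protease inhibitor antichymotrypsin, rose from 57.16 and 65.31 to 5669 and 2807 (5.70 ± 0.43, adjusted p = 0.00038). LCN2, which binds bacterial iron carriers, went from 105.1 and 93.48 to 3341 and 1424. CFB, factor B of the alternative complement pathway, went from 58.50 and 37.89 to 1874 and 774.6. With PI3, the elastase inhibitor elafin (2.46 ± 0.32), these were the 4 called of 26 acute phase, complement and antimicrobial genes. SERPINB7 rose by 5.08 ± 0.37, from 6.14 and 9.05 to 1264 and 476.4, and read 106.2 and 174.4 in T350A add-back. The difference of the 2 plasmids in SERPINB7 missed the threshold (adjusted p = 0.05). IL32, a pro-inflammatory cytokine, was listed at exactly 1.00 on all si-Control and si-EZH2 arrays and read 773.7 and 261.8 in WT add-back. TNFSF15, a TNF family cytokine, rose from 776.0 and 804.4 to 4794 and 3647 (2.38 ± 0.20), and TNFSF18, another member, from 102.5 and 103.5 to 3153 and 1588. Of 36 further cytokines and growth factors 9 were called, all higher, and 5 without si-EZH2 replicate 2 or WT add-back replicate 1.

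Subunits and inhibitors of NF-kappaB rose as a group, 14 of 18 measured and none lower, with a median of 1.34 against -0.05 for all genes. NFKBIA, the inhibitor IkB-alpha that NF-kappaB itself induces, went from 1948 and 2026 to 6533 and 7072 (1.77 ± 0.11, adjusted p = 0.00026). A dimmer NFKBIA probe set gave -0.10 and was not called. TNFAIP3, the ubiquitin-editing inhibitor A20, went from 202.7 and 181.8 to 3016 and 3043 (3.87 ± 0.34, adjusted p = 0.00061). NFKBIZ, a nuclear co-regulator, went from 234.6 and 231.6 to 1949 and 2740. In NFKBIA, TNFAIP3 and NFKBIZ the second WT add-back array was as high as the first or higher. For 10 of the 14 called members the first lay farther from si-EZH2. The subunit genes NFKB1, NFKB2 and RELB rose by 1.49 ± 0.18, 1.65 ± 0.19 and 1.80 ± 0.24, and the A20 partner TNIP1 by 1.48 ± 0.15, whose other probe set gave 0.25, which was no call. Without either si-EZH2 array or without WT add-back replicate 1 the count was 8 of 18. The same genes were high in T350A add-back, with NFKBIA at 10005 and 7715, and none was called between the plasmids. Of 34 survival, adhesion and signalling genes induced by NF-kappaB and TNF 16 rose and 2 fell (median 0.65). SOD2, the mitochondrial superoxide dismutase, rose from 516.6 and 586.5 to 4214 and 2866 (2.62 ± 0.17, adjusted p = 0.00026). TNFRSF9, TNFAIP2 and IRAK2, a kinase of interleukin-1 receptor signalling, rose by 3.16 ± 0.35, 2.64 ± 0.28 and 2.42 ± 0.24. That count was 9 without either si-EZH2 array or without WT add-back replicate 1.

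Immediate early genes, transcription factors and phosphatases that respond to signals without new protein synthesis, rose in 12 of 34 cases and fell in 2. KLF4 went from 897.6 and 879.1 to 4727 and 3162 (2.10 ± 0.22), MAFF rose by 2.41 ± 0.29 and the MAP kinase phosphatases DUSP5 and DUSP1 by 1.83 ± 0.22 and 1.16 ± 0.11. JUNB and CITED2 rose by 1.62 ± 0.23 and 0.98 ± 0.11. Of the other DUSP1 probe sets, 1 rose by 1.98 and 1 was not called (0.01, from a mean signal of 220.7). The count of rises fell to 6 without si-EZH2 replicate 2 and to 7 without si-EZH2 replicate 1 or WT add-back replicate 1. CEBPD, a transcription factor of the acute phase response, went from 1458 and 1299 to 6398 and 5276 (2.07 ± 0.17, adjusted p = 0.00054).

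Antigen presentation and part of the interferon programme rose. Of 17 genes of MHC class I presentation 11 rose and none fell, with all 17 differences above 0 and a median of 0.68. TAPBP, which loads peptides on class I molecules, went from 1016 and 1003 to 3921 and 2805 (1.70 ± 0.15, adjusted p = 0.00054). PSMB9, an immunoproteasome subunit, rose from 70.57 and 100.5 to 840.9 and 357.1, and the peptide transporter gene TAP1 from 656.3 and 667.3 to 2263 and 1378. HLA-B, HLA-C and HLA-E rose by 0.88 ± 0.12, 0.68 ± 0.10 and 0.90 ± 0.11. HLA genes are near-identical in sequence, so a probe set may read several of them. Without either si-EZH2 array or without WT add-back replicate 1 the count was 6 of 17. Of 42 interferon-stimulated genes 13 rose and 1 fell, with a median of 0.20. GBP1, a guanylate-binding defence protein, went from 44.19 and 40.80 to 2253 and 1072 (4.75 ± 0.34, adjusted p = 0.00037). Of the other GBP1 probe sets, 2 rose by 4.37 and 4.68, and the third was not called (-0.35, adjusted p = 0.49, with a mean signal of 90.18 in si-EZH2 and 67.29 in WT add-back). ISG20 rose by 1.46 ± 0.20 and IFITM1 by 0.97 ± 0.14, both called without any 1 array. OAS3 rose by 0.62 ± 0.10, a call lost without si-EZH2 replicate 1 (adjusted p = 0.057). The count of rises was 3 without si-EZH2 replicate 1 and 6 without si-EZH2 replicate 2 or WT add-back replicate 1. Among nucleic acid sensors and interferon regulatory factors, 4 of 23 rose, and 2 without si-EZH2 replicate 2. IFIH1, the double-stranded RNA sensor MDA5, went from 309.0 and 326.3 to 1164 and 700.8 (1.46 ± 0.20, with 0.19 and -0.37 in its dimmer probe sets, neither called), and the factor IRF1 from 224.1 and 248.3 to 1505 and 1631 (2.65 ± 0.39). The interferon gene IFNB1, looked up after its values were seen, read 44.03 and 26.53 in si-EZH2 and 88.58 and 52.09 in WT add-back (adjusted p = 0.16).

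**Figure D2:**
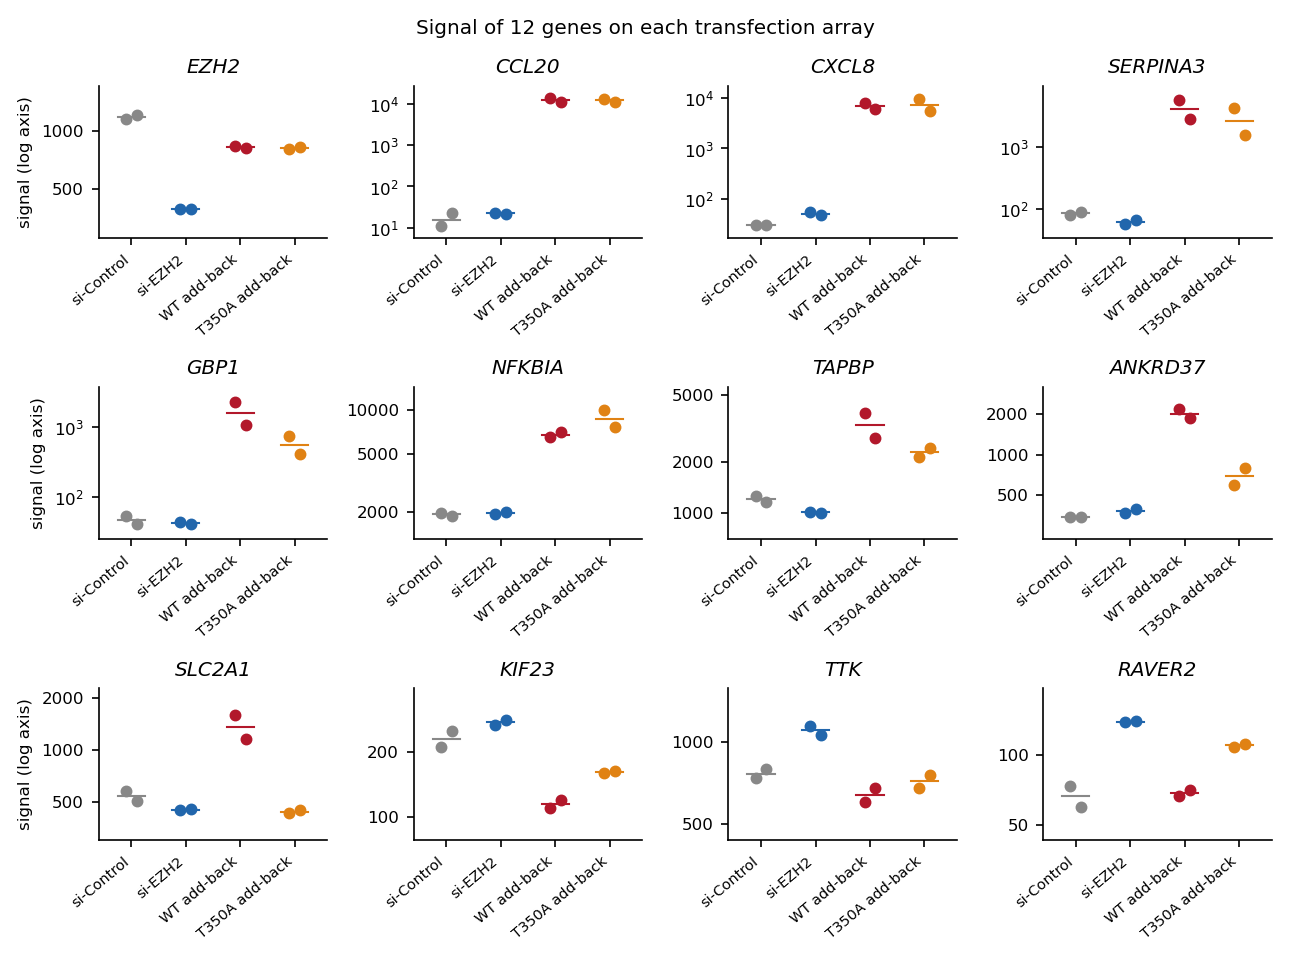
Each panel shows the signal of 1 gene on a log axis on the 8 transfection arrays, 2 points per group with a bar at their geometric mean. CCL20, CXCL8, SERPINA3, GBP1, NFKBIA and TAPBP are high with both plasmids, whereas SLC2A1 is at the si-EZH2 level in T350A add-back and ANKRD37 lies between the si-EZH2 and WT add-back arrays there.

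Hypoxia-inducible and glycolysis genes rose in 24 of 34 cases and none fell, with a median of 0.63. ANKRD37, a hypoxia-inducible ankyrin repeat gene, went from 369.2 and 396.6 to 2183 and 1876 (2.36 ± 0.14, adjusted p = 0.00026). SLC2A1, the glucose transporter GLUT1, went from 450.6 and 454.0 to 1599 and 1156 (1.55 ± 0.14, adjusted p = 0.00073). HK2, which traps glucose as its phosphate, went from 1104 and 1057 to 4173 and 2944 (1.68 ± 0.18, adjusted p = 0.0014). In each of these genes both WT add-back arrays stood above both si-EZH2 arrays, as in every gene called higher. PFKFB3, an activator of glycolysis, the enolase ENO2, the histone demethylase KDM3A and the stress gene NDRG1 rose by 1.70 ± 0.16, 1.72 ± 0.19, 1.64 ± 0.14 and 1.86 ± 0.17. All 7 of these were called without any 1 array, and the count of the list lay between 16 and 25 over those fits. VEGFA, which drives vessel growth, rose from 4634 and 4475 to 6962 and 6720 (0.59 ± 0.08), and its other 3 probe sets rose by 1.09 to 1.22. Another HK2 probe set with a lower signal moved the other way (-0.54, adjusted p = 0.037, from a mean of 290.7 to 194.4), and the third gave -0.29 and was not called. HMOX1, haem oxygenase and a target of NRF2, the main activator of antioxidant genes, rose from 591.5 and 541.1 to 5697 and 3912 (3.03 ± 0.23, adjusted p = 0.00038). GCLM, of glutathione synthesis, rose by 0.93 ± 0.12, SQSTM1 by 0.68 ± 0.07 and TXNRD1 by 0.56 ± 0.08. The other 4 SQSTM1 probe sets gave 2.60 and 1.86, both called, and 0.18 and -0.30, not called. Together with PGD, whose call was lost without either si-EZH2 array or WT add-back replicate 1, these were 5 called of 19 NRF2 and oxidative stress genes.

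The T350A plasmid did not give the same levels of the hypoxia genes. SLC2A1 read 430.8 and 449.6 in T350A add-back, at the level of si-EZH2, and ENO2 read 149.2 and 206.3. PFKFB3 read 467.2 and 693.5, and ANKRD37 read 597.8 and 798.4, above si-EZH2 but below both WT add-back arrays. T350A add-back lay below WT add-back on both arrays for 27 of the 34 genes, as it did for 2378 of all 19775 genes. The direct comparison of the 2 plasmids called 40 genes (0.202%), 9 higher (0.0455%) and 31 lower (0.157%) in T350A add-back, and 10 of the 31 were members of this list. The differences were -1.59 ± 0.14 for SLC2A1, -1.53 ± 0.14 for ANKRD37 and -1.67 ± 0.16 for PFKFB3 (each adjusted p = 0.016). VEGFA was not called between the plasmids in the probe set used, with 7104 and 6500 in T350A add-back. The number of calls between the plasmids was 0 without either TSA array (2938 genes at an unadjusted p under 0.05) and 1008 without WT add-back replicate 2. It was 6 or 7 without a si-Control or si-EZH2 array. Among the named genes SLC2A1, PFKFB3, NDRG1 and KDM3A kept their call in 12 of 14 fits without 1 array, with an adjusted p of up to 0.051. The median difference of the list was -0.54, against 0.06 for all genes. Further lists were shifted between the plasmids too, with no member called. The median was -0.33 for MHC class I presentation, with 16 of 17 differences below 0. It was 0.30 for G2 and mitosis, with 50 of 52 differences above 0. For S phase it was 0.33 (39 of 42 above 0) and for recombination and Fanconi repair 0.33 (24 of 26). The 2 T350A add-back arrays differed from each other along the genes by which the 2 Roscovitine arrays differed (Pearson r = 0.662 over 15759 genes, which are not independent), and the part of this in the result was not tested.

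**Figure D3:**
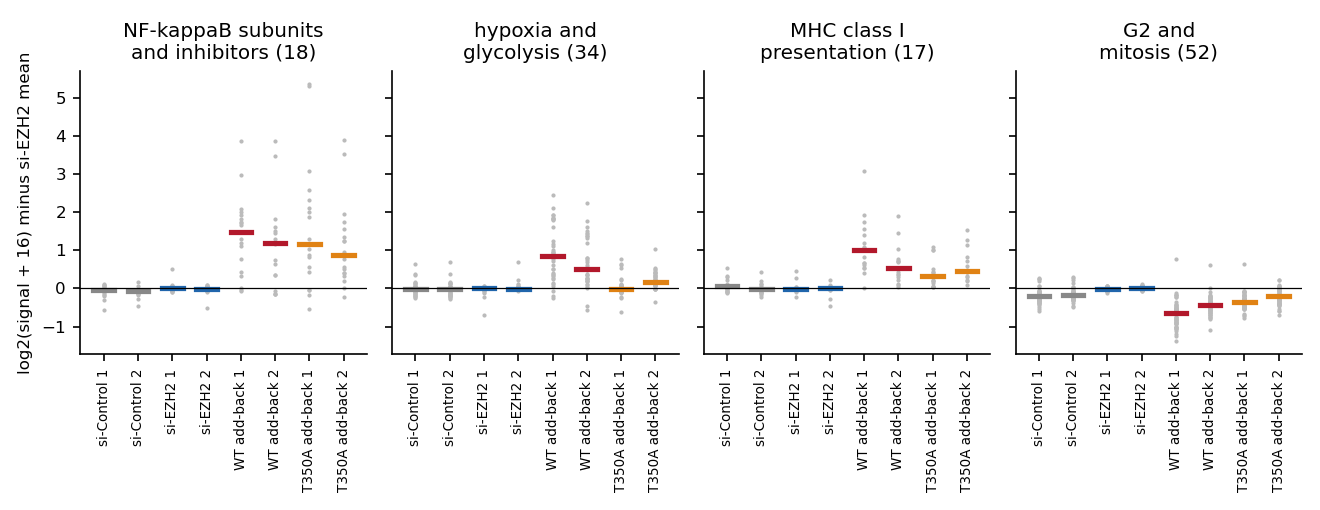
Each grey point is 1 gene of a list on 1 array, as log2(signal + 16) minus the mean of the 2 si-EZH2 arrays, and each coloured bar is the median of the list on that array. The bars of the hypoxia and glycolysis list stand at 0.85 and 0.51 in WT add-back and at -0.02 and 0.17 in T350A add-back. In the same order those of NF-kappaB subunits and inhibitors stand at 1.48 and 1.20 and at 1.17 and 0.87. Those of MHC class I presentation stand at 1.02 and 0.53 and at 0.32 and 0.46. For G2 and mitosis they stand at -0.654 and -0.442 and at -0.355 and -0.188.

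Genes of cell division fell. Of 52 genes of G2 and mitosis 41 fell and 1 rose, with 51 of the differences below 0 and a median of -0.57. KIF23, a motor of the central spindle, went from 264.9 and 281.0 to 109.3 and 119.3 (-1.15 ± 0.11, adjusted p = 0.00097). KIF11, the spindle motor Eg5, went from 609.2 and 640.7 to 299.1 and 365.3 (-0.89 ± 0.09, adjusted p = 0.0013). TTK, the checkpoint kinase MPS1, went from 1152 and 1069 to 600.8 and 676.2 (-0.78 ± 0.09, adjusted p = 0.0018). In each case the groups did not overlap, as in every called gene and in 10640 of all 19775 genes. KIF14, DLGAP5 and the kinetochore gene SPC25 fell by 0.71 ± 0.08, 0.71 ± 0.08 and 0.60 ± 0.07 on the log2 scale. These 6 genes were called without any 1 array. The one that rose was SMC2, a condensin subunit (0.70), named after its value was seen. The si-Control arrays lay below si-EZH2 here too, with list medians of -0.19 and -0.17, and WT add-back lay lower still at -0.65 and -0.44.

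Replication and repair genes fell less far. Of 42 S phase genes 21 fell, with all 42 differences below 0 and a median of -0.46. POLE2, a DNA polymerase epsilon subunit, went from 450.2 and 518.5 to 212.1 and 309.5 (-0.87 ± 0.15, adjusted p = 0.0087). The primase gene PRIM1 fell by 0.64 ± 0.11 and RFC4, of the clamp loader, by 0.59 ± 0.11. Of 26 recombination and Fanconi repair genes 13 fell (median -0.37), among them RAD51AP1, from 2232 and 2152 to 1115 and 1434 (-0.79 ± 0.10, adjusted p = 0.0034), FANCG (-0.58 ± 0.08) and FANCM (-0.57 ± 0.09). Most of these falls are under 1 log2 unit and their calls rest on few arrays. With si-EZH2 replicate 2, si-EZH2 replicate 1 or WT add-back replicate 1 left out, the G2 and mitosis count was 13, 15 and 20, the S phase count 1, 6 and 8 in the same order, and the repair count 3, 4 and 7. Without si-EZH2 replicate 2 the calls of POLE2, PRIM1 and RFC4 were lost, with adjusted p values up to 0.084. With all arrays at the same median 30, 11 and 7 members of the 3 lists were still called lower, and the list medians were -0.53, -0.42 and -0.33. On the 8 transfection arrays alone 10, 0 and 0 members were called lower, as were 120 of all 19775 genes. In bulk samples fewer cells of a kind and less RNA per cell cannot be told apart.

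**Figure D4:**
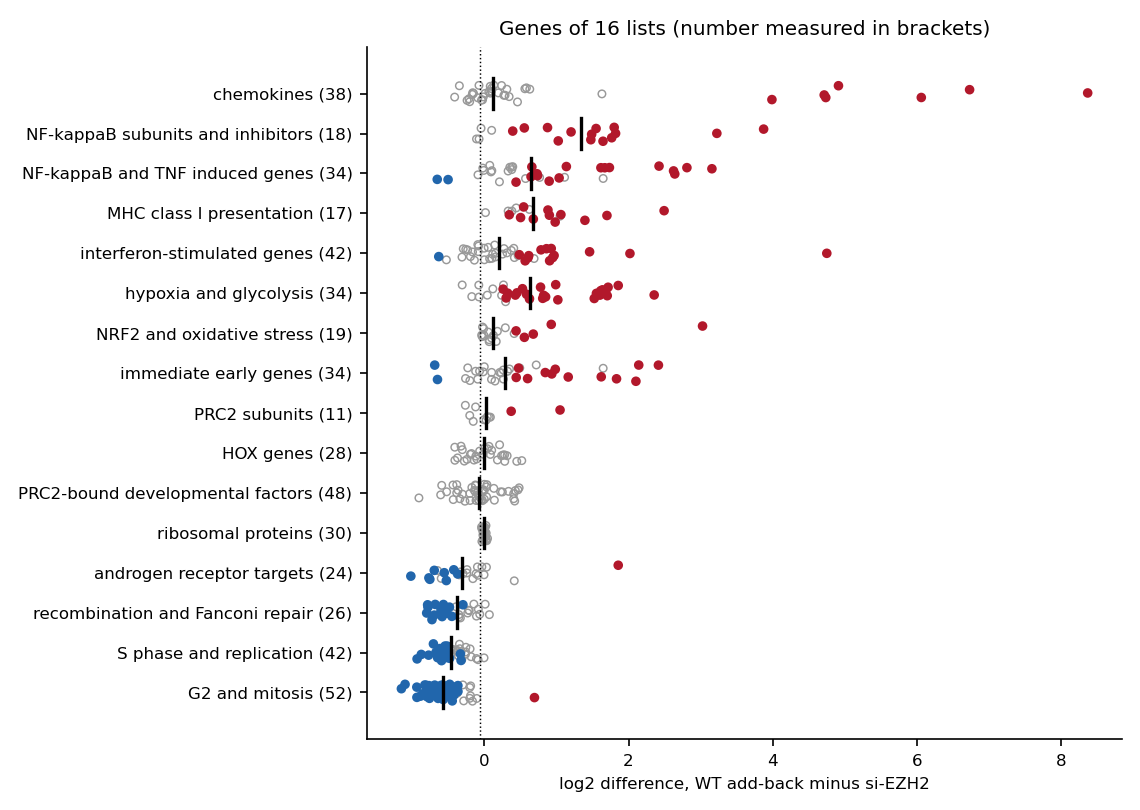
Each point is 1 gene of a list, placed by its log2 difference, WT add-back minus si-EZH2, with filled points for called genes (red higher, blue lower), open points for uncalled ones, a black bar at the median of the list and a dotted line at the median of all genes (-0.05). The list medians run from -0.57 for G2 and mitosis to 1.34 for NF-kappaB subunits and inhibitors, while HOX genes, PRC2-bound developmental factors and ribosomal proteins hold no called gene.

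Genes of cell-cycle arrest were split, as 4 of the 10 listed rose and 2 fell. On the 8 transfection arrays alone 0 were called in either direction, against 124 higher and 120 lower of all 19775 genes. CDKN2B, the CDK inhibitor p15, rose from 21.06 and 34.66 to 257.6 and 96.47 (2.02 ± 0.37, adjusted p = 0.011), a call lost without either si-EZH2 array. CDKN1A, the inhibitor p21, rose slightly, from 5024 and 4866 to 6302 and 6202 (0.34 ± 0.08, adjusted p = 0.033), and was called in 6 of 14 fits without 1 array. CDKN3 and the pocket protein gene RBL1 fell by 0.63 ± 0.14 and 0.64 ± 0.12, both lost without either si-EZH2 array or WT add-back replicate 1. The other 3 RBL1 probe sets gave 0.86, 0.11 and -0.07, none called, and the mean over all of them was 0.065. The other CDKN2B probe set gave 0.77, from a mean signal of 12.52 in si-EZH2, and was not called. CDKN1C and CDKN2A rose too, by 0.36 to 0.54 and by 0.28 to 0.55 over the fits without 1 array. PLK2, a p53 target, rose from 790.2 and 806.8 to 3378 and 1995 (1.68 ± 0.20, adjusted p = 0.0022) and was called without any 1 array. Of 25 p53 targets 6 rose and 1 fell, and 1 to 2 rose without either si-EZH2 array or WT add-back replicate 1.

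Of 24 androgen receptor target genes 8 fell and 1, NDRG1, rose, with a median of -0.31. KLK2, the kallikrein next to KLK3, went from 3503 and 3845 to 1377 and 2362 (-1.02 ± 0.21, adjusted p = 0.017). TMEFF2 went from 7733 and 7639 to 3499 and 5803 (-0.77 ± 0.18, adjusted p = 0.028). PLPP1 went from 6844 and 6486 to 3324 and 5090. In all 3 the second WT add-back array lay between the first and si-EZH2, and none was called without si-EZH2 replicate 1 or replicate 2. Without either of these arrays no member of the list was called lower. Between 3 and 5 were without a DMSO, TSA, Roscovitine or si-Control array or WT add-back replicate 1, and 2 were with all arrays at the same median. KLK3 itself read 9832 and 9600 in si-EZH2 and 5100 and 8073 in WT add-back, a difference that missed the threshold (adjusted p = 0.063). The summed signal of the 14 LNCaP and luminal markers was 58619 and 58341 in si-EZH2 and 46693 and 53468 in WT add-back.

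Genes known as PRC2 targets differed by list. None of 28 HOX genes and none of 48 developmental regulators that PRC2 occupies in embryonic stem cells was called in either direction by limma, with medians of -0.01 and -0.07. At an unadjusted p under 0.05 the counts were 6 and 9, near the 24.9% of all genes at that p. Of 26 genes listed here as EZH2-repressed in cancer lines 5 rose and 2 fell (26.9%, against 11.3% of all genes). Between si-EZH2 and si-Control 0 of the 26 were called, against 0.809% of all genes, and the list median was 0.01. IGFBP3, which binds insulin-like growth factors, rose from 598.3 and 590.0 to 1934 and 1662 (1.57 ± 0.11, adjusted p = 0.00037), and FBXO32, a ubiquitin ligase component, from 241.2 and 246.6 to 575.4 and 484.8 (1.07 ± 0.09, adjusted p = 0.00054). None of the other 6 FBXO32 probe sets was called, with values between -0.03 and 0.49. Both lie above si-Control as well, where IGFBP3 read 939.8 and 850.7 and FBXO32 read 323.6 and 319.0. The 2 that fell were the cell-cycle factor E2F8 (-0.86 ± 0.09, adjusted p = 0.0012) and MSMB (-0.53 ± 0.11, adjusted p = 0.018), the latter lost without either si-EZH2 array or WT add-back replicate 1. The rises numbered 2 without either si-EZH2 array and 3 without WT add-back replicate 1 or a DMSO array. None of 14 subunits of the other Polycomb complex, PRC1, was called by limma (4 at an unadjusted p under 0.05), nor of 30 ribosomal protein genes (0 at that p), which lay between -0.04 and 0.04.

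Genes that the knockdown itself had moved behaved in different ways when EZH2 was returned. The 2 comparisons share the si-EZH2 arrays, so the levels are given side by side. Most of these genes were picked for a large difference between si-EZH2 and si-Control. A move back towards si-Control is favoured by that choice, and the adjusted p-values from si-EZH2 do not allow for it. RAVER2, an RNA-binding protein gene, read 73.60 and 60.09 in si-Control, 138.0 and 139.1 in si-EZH2, 66.48 and 70.73 in WT add-back and 108.6 and 111.0 in T350A add-back. With the wild-type plasmid it lay within the range of the si-Control arrays, and the fall from si-EZH2 was 0.87 ± 0.08 (adjusted p = 0.0010). ZNF658, a zinc finger gene, read 98.78 and 101.7 in si-Control, 263.6 and 268.4 in si-EZH2, 147.7 and 156.1 in WT add-back and 188.9 and 234.9 in T350A add-back (fall from si-EZH2 0.75 ± 0.10, adjusted p = 0.0036). By contrast TMCO1, a calcium channel of the endoplasmic reticulum, read 1507 and 1488 in si-Control, 4230 and 4090 in si-EZH2 and 4061 and 3928 in WT add-back. FYCO1, STRADB and PLAAT3 were likewise raised by the siRNA and stayed at 261%, 229% and 265% of si-Control in WT add-back, with no called difference from si-EZH2 (adjusted p from 0.20 to 0.996). FNDC3A lay 1.19 log2 units above si-Control in si-EZH2 and 1.54 above it in WT add-back, again with no called difference from si-EZH2. Of the genes lowered by the knockdown NOS3, endothelial nitric oxide synthase, went back from 55.9% to 93.4% of si-Control and DIO3, a deiodinase that inactivates thyroid hormone, from 36.9% to 64.8%. Their rises over si-EZH2 were 0.70 ± 0.14 (adjusted p = 0.014) and 0.79 ± 0.20 (adjusted p = 0.033), and the calls were lost in 3 and 9 of 14 fits without 1 array, among them those without either si-EZH2 array or WT add-back replicate 1. The fall of NOS3 from si-Control to si-EZH2 was itself called in 4 of 14 such fits (adjusted p up to 0.25), and that of DIO3 in 10. PRKACA, a catalytic subunit of protein kinase A, stayed at 51.0% of si-Control, and DDC, dopa decarboxylase, fell further to 41.6% from 57.5%. GDF2 differed from si-Control by -1.07 log2 units in si-EZH2 and by -1.14 in WT add-back. Over all genes 160 were called between si-EZH2 and si-Control (0.809%), of which 135 were higher (0.683%) and 25 lower (0.126%) in si-EZH2, and 16 to 24 without 1 of the 4 arrays compared. Between WT add-back and si-Control 1507 were called (7.62%), 846 higher (4.28%) and 661 lower (3.34%) in WT add-back, and 381 or 462 without a si-Control array. The balance turned to 903 higher and 1070 lower with quantile normalization and to 1139 and 1189 without WT add-back replicate 2, and was 895 and 417 with all arrays at the same median.

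Among the largest changes of genes outside the lists, ZC3H12C, a ribonuclease of the regnase family, rose from 229.2 and 223.7 to 3304 and 1978 (3.41 ± 0.25, adjusted p = 0.00038), VNN1, a pantetheinase, from 14.96 and 18.16 to 605.3 and 190.6, and KMO, of tryptophan breakdown, from 35.78 and 59.41 to 915.1 and 382.5. Of 27 matrix protease genes 3 rose and none fell, among them MMP7 (3.06 ± 0.41) and ADAM17, which sheds TNF from the cell surface (0.78 ± 0.09). The largest falls included ARHGEF26-AS1, an antisense RNA, from 356.7 and 382.8 to 77.57 and 156.1 (-1.60 ± 0.24, adjusted p = 0.0053), and TRIM2, a ubiquitin ligase gene, from 268.3 and 245.2 to 93.49 and 109.3 (-1.22 ± 0.09, adjusted p = 0.00037). RIPOR2 fell by 1.18 ± 0.09. Of 27 epithelial genes 2 rose and 4 fell, among them CLDN8, a tight junction claudin, which fell by 1.21 ± 0.16, and the falls numbered 1 without either si-EZH2 array and 2 without WT add-back replicate 1. CCNYL2 and CDCA7 fell by 1.85 ± 0.41 and 1.30 ± 0.30 but lost their calls without either si-EZH2 array, and CCNYL2 also without either WT add-back array. CDCA7 read 1154 and 1184 in si-EZH2 and 294.3 and 728.1 in WT add-back, and its other probe set gave -0.18 and was not called. The other genes named in the paragraph were called without any 1 array.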

How the data were processed

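Total RNA was extracted with a Qiagen kit and labelled with biotin after Affymetrix's manual, per the labels' protocols. The deposited table holds linear intensity values of 54613 probe sets on 14 arrays, summarized by the authors by a method not given in the sources used here. Some values are exactly 1.00, and the sources used here do not say why. Probe sets were joined to genes by the platform annotation: 41091 had 1 symbol, 1801 several and 11721 none. The probe set with the highest mean log2 value stood for its gene. All 14 arrays entered 1 model of 7 group means on log2(signal + 16) in limma 3.58.1 (R 4.3.3, lmFit and eBayes, 7 residual and 2.11 prior degrees of freedom), which assumes 1 spread for all groups. P-values were adjusted by the Benjamini-Hochberg method over 19775 genes.

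The genes named were EZH2, the PRC2 subunits, the 20 largest rises and falls among called genes whose arrays did not overlap and whose higher mean was at least 50, up to 6 called members per list by smallest p (up to 3 members where fewer than 3 were called), and by the same overlap and signal rule up to 6 in each direction between si-EZH2 and si-Control and up to 8 in the other 2 comparisons. A gene outside this rule is marked as such. The comparison, the gene lists and the rule were chosen with earlier results of these data known, and no list test was made. Tested on simulated data, the fit recovered 11, 43, 50 and 50 of 50 genes changed by log2 0.5, 1, 2 and 4 between these groups and called 7 of 19575 unchanged genes. The simulated noise was independent between arrays, with 1 spread per gene for all groups, as the model assumes. It therefore cannot give the rate of false calls on the real arrays. Alternatives were other arrays in the fit, each array left out, a replicate block, quantile or median scaling, pseudocounts of 1 and 64, a filter on low signals, other treatments of probe sets and another prior. Promoters came from RefSeq (GRCh38.p14). Python 3.11.15 with pandas 2.3.3 made the tables and matplotlib 3.10.9 the figures.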

Additional observations from a re-analysis of the deposited data

Results flagged for a closer look

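The direct comparison of the T350A with the wild-type plasmid was called for 40 genes, of which 19 are given here because the naming rule, which draws in part on this comparison, covers them. The log2 difference, T350A add-back minus WT add-back, was -1.68 for HMOX1, -1.67 for PFKFB3, -1.61 for NDRG1, -1.59 for SLC2A1, -1.59 for ENO2, -1.53 for ANKRD37, -1.49 for HK2, -1.49 for POFUT4, -1.42 for KDM3A, -1.03 for IGFBP3, -0.80 for INSIG1 and -0.68 for FBXO32. It was 0.75 for TRIM2, 0.62 for LRP8-DT, 0.61 for SOX13, 0.57 for each of AHNAK2, AGBL3 and RAVER2, and 0.46 for LINC00648. SOX13 was not called between WT add-back and si-EZH2 (adjusted p = 0.998), with 237.0 and 227.1 in si-EZH2, 235.3 and 229.6 in WT add-back and 367.2 and 361.2 in T350A add-back. None of the 19 changed direction without any 1 of the 14 arrays, and each lost its call in at least 2 of those fits.

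A signal also appeared in the 13522 probe sets that carry no gene symbol or several, which the report does not use. There limma called 32 higher and 42 lower in WT add-back than in si-EZH2. The largest rise was in a probe set with several symbols, from 72.65 and 83.18 to 6076 and 3209 (5.56 ± 0.28, adjusted p = 2.9e-05).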

How the results depend on the processing

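Over the 2234 genes called between WT add-back and si-EZH2, the count was 3695 with every probe set tested on its own (of 41091), 244 on the 8 transfection arrays alone and 3 on the 4 compared arrays alone. It ranged from 458 to 2800 over the fits without 1 array. In the same order the 1507 calls between WT add-back and si-Control became 2356, 238 and 3, with 381 to 2328 without 1 array. The 160 calls between si-EZH2 and si-Control became 98 with all arrays at the same median, 241 with genes of mean signal of at least 50, 314 with an intensity trend and robust prior, 83 with a gene's probe sets averaged, 247 with a pseudocount of 64, 5 on the transfection arrays and 0 on the compared arrays (3318 at an unadjusted p under 0.05 by limma), with 16 to 280 without 1 array. The 40 calls between the plasmids became, under those settings, 90, 76, 112, 14, 75, 0 and 0 (2425 and 1069 at an unadjusted p under 0.05 by limma), and 77 with quantile normalization, with 0 to 1008 without 1 array. With the replicate number as a block the 4 counts were 2154, 1368, 103 and 20. The numbers are not stated to mark a shared culture or day, so the pairing is by number only. The deviations of same-numbered arrays correlated across genes at r = 0.05 for si-EZH2 and WT add-back, 0.004 for WT and T350A add-back, and 0.662 for Roscovitine and T350A add-back. Between WT add-back and si-EZH2, the 8 transfection arrays alone called 124 of all 19775 genes higher. Among these were 7 of 38 chemokines, 14 of 34 hypoxia and glycolysis genes and 5 of 18 NF-kappaB subunits and inhibitors. The count was 2 of 17 for MHC class I presentation and 1 of 42 for interferon-stimulated genes. Of 24 androgen receptor targets 0 were called lower there.

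Of 182 named called genes 96 were called in all 14 fits without 1 array, and none reversed there. With a gene's probe sets averaged 5 of them reversed, CDKN2A to -0.0402, DSC2 to 0.21, GINS4 to 0.0051, MET to 0.0643 and RBL1 to 0.0651. PLAAT3, which was not called, took the value 0.0323 with arrays at the same median, 0.0958 with probe sets averaged, 0.0361 with quantile normalization, and -0.0913 to 0.0794 without 1 array. GDF2, also not called, ranged from -0.1804 to 0.0230 without 1 array. The cause of these shifts was not tested. Arrays give no count of molecules, so signal over background is the limit, and differences of genes under a signal of 50 are understated.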

Other observations

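Of 18 cytosolic heat shock chaperones 4 rose and none fell. DNAJA1, a co-chaperone of HSP70, went from 4313 and 4304 to 7310 and 6137 (0.63 ± 0.09, adjusted p = 0.0050), and was called without any 1 array. Without si-EZH2 replicate 1 the count of the list was 1. Of 14 genes that mark prostate lines independent of androgen 3 rose and 1 fell, and the rises included CXCL8 and the laminin gene LAMB3, from 63.37 and 55.74 to 671.3 and 266.1 (2.54 ± 0.33, adjusted p = 0.0030). The summed signal of those 14 markers was 5049 and 5002 in si-EZH2 and 14829 and 11962 in WT add-back. CXCL8 carried most of this, as the other 13 summed to 4995 and 4955 in si-EZH2 and to 6809 and 5795 in WT add-back, and the median difference of the list was 0.08. THBS1, a matrix glycoprotein of the mesenchymal list, rose from 1263 and 1098 to 4429 and 3140 (1.65 ± 0.29, adjusted p = 0.0090), a call lost without si-EZH2 replicate 2 or WT add-back replicate 1 (adjusted p up to 0.070), while 3 of the other 6 THBS1 probe sets were called higher (1.67 to 1.96) and 3 were not called (0.38, 0.09 and -0.06).

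Single values, chosen after they were seen, stood apart from their probe sets. A probe set of SYNJ2 that was not used for its gene read 109943 on si-EZH2 replicate 2. On the other 13 arrays it read between 68.87 and 142.7. A probe set without exactly 1 gene symbol, not used for any gene, read 1570775 on si-Control replicate 1. On the other 13 arrays it read between 55.57 and 100.1.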
